A study of Homo sapiens with 4 samples.

Results

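The genes described here encode 4 classes of proteins that splice messenger RNA: the SR proteins with SRSF symbols, the heterogeneous nuclear ribonucleoproteins (hnRNPs) with HNRNP symbols, the small nuclear ribonucleoprotein (snRNP) proteins with SNRP symbols, and the SF3A and SF3B subunits of the U2 snRNP. They were chosen by symbol alone and numbered 59 of 20323 genes, with 12 SRSF, 26 HNRNP, 12 SNRP and 9 SF3 genes. The assay was ribosome footprint sequencing, and the cells were a 5-fluorouracil-resistant derivative of HCT-8, an established line from a human colorectal adenocarcinoma. Cells received either a plasmid overexpressing METTL14 (OE) or a negative control plasmid (NC), and both groups were given cycloheximide at 100 ug/mL to stop elongating ribosomes in place. There were 2 libraries in each group, from experiments the submitters describe as independent. METTL14 is the partner of METTL3 that binds RNA in the enzyme that places N6-methyladenosine (m6A) on messages, and the comparison addresses how footprints on messages changed when it was overexpressed in the resistant cells.

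SR proteins carry RNA recognition motifs and a tail rich in arginine and serine, and mostly help the spliceosome define exons. hnRNPs coat nuclear transcripts and often oppose SR proteins at exons; HNRNPC and HNRNPA2B1 have also been described as binding RNA that carries m6A. Sm proteins form a ring around the small nuclear RNAs, and SF3A and SF3B hold the U2 snRNP on the branch point of the intron. Many SR protein and hnRNP genes limit their own output by splicing in exons that make the message unstable.

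The deposited estimated counts summed to 7742274 and 24392875 in OE and to 21846389 and 18707758 in NC; paired values are of replicates 1 and 2, here and below. Counts were scaled to CPM, the count relative to the library total, with totals adjusted by the trimmed mean of M values (TMM), which gave a factor of 1.36 for OE replicate 1 and between 0.889 and 0.913 for the others. CPM was not corrected for gene length, so levels are compared between libraries and not between genes. How much message there was and how densely ribosomes covered it cannot be told apart from footprints because no library of total RNA was analysed. The OE libraries stood apart from each other: the log2 difference between replicates had a standard deviation of 1.30 for OE and 0.462 for NC over 12560 genes. METTL14 had 448 and 91.2 CPM in OE, against 44.5 and 47.6 CPM in NC, a log2 fold change of 2.55 with an adjusted p of 0.734 (edgeR quasi-likelihood F test, Benjamini-Hochberg). Of 10 colorectal epithelial markers, CEACAM5 was at 0 in every library, and the list summed to 6274 and 24759 CPM in OE and to 21942 and 21310 CPM in NC. The epithelial sum was therefore low in OE replicate 1, and whether that bears on the values below was not tested. Summed markers of fibroblasts, endothelium, erythroid cells and hepatocytes stayed at or below 5.23 CPM in every library, with CDH5 at 0 in all of them. Leukocyte markers summed to 41.0 and 28.7 CPM in OE and to 70.6 and 75.5 CPM in NC, with CD3E at 0.

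Of the 59 genes, 54 had enough counts to be tested. SNRPN and SRSF12 were listed at 0 in all 4 libraries. The files do not show whether reads of SNRPN, which closely resembles SNRPB, were counted elsewhere or dropped, so its 0 is not a measure of its translation. For SRSF12 the upper limit behind a 0, taken as 3 counts and covering counting error only, was 0.285 and 0.136 CPM in OE and 0.154 and 0.176 CPM in NC. HNRNPCL1, HNRNPCL3 and HNRNPCL4, copies related to HNRNPC, reached at most 0.436 CPM in any library. Estimated counts that hold a fraction arise where reads are divided between features, and 25 of the 59 genes had such a count in at least 1 library. These were 17 hnRNPs, 4 SR proteins, 4 snRNP proteins and 0 of the SF3 genes. Values of HNRNPA1L2, HNRNPA1P48 and HNRNPCL2, which resemble HNRNPA1 or HNRNPC, are uncertain for that reason. HNRNPA1, HNRNPC, HNRNPU, HNRNPH2, SNRPF and SRSF1 were also among the genes with such a count, so their values are not free of this limit.

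No tested gene of the 4 classes passed the threshold of 0.05 in OE against NC: the count was 0 of 54 with edgeR (quasi-likelihood F test, Benjamini-Hochberg), in a table where 0% of 12560 genes passed. DESeq2 and edgeR's likelihood ratio test also called 0 of the 54, where they called only 0.199% and 0.231% of all genes tested. Of the 54, 3 had an unadjusted p below 0.05 (edgeR quasi-likelihood F test): SF3B1, SF3B3 and SF3B6, all lower in OE. A share near this, 5.5%, had such a p in either direction over all genes, and 2.52% in the lower direction. In 25 of the 54 genes each OE library was below each NC library, beside 20.4% of all genes tested. In 2, SRSF1 and HNRNPA1L2, each OE library was above each NC library, beside 19.9% of all genes; SRSF1 lost this when its 2 rows were added together. A further 21 lay below both NC libraries in OE replicate 1 and above both in OE replicate 2, a pattern of 19.8% of all genes. The opposite pattern held for 3, SRSF11, HNRNPUL1 and SF3A2, and for 19.2% of all genes.

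The classes differed in where they lay in the OE libraries. SF3 genes were lower in both OE libraries in 6 of 9 cases, hnRNPs in 12 of 23, snRNP proteins in 4 of 11 and SR proteins in 3 of 11. Set against the NC mean on the log2 scale, the median gene in OE replicate 1 lay at -1.08 for SF3 genes, -1.32 for hnRNPs, -1.34 for snRNP proteins and -0.24 for SR proteins. The corresponding medians for OE replicate 2 were -0.42, -0.17, 0.29 and 0.44 in the same order of classes. Over all genes tested these medians were 0.02 in OE replicate 1 and 0.00 in OE replicate 2. Most of the splicing genes were well above the middle of the table, and 51 of the 54 had an NC mean of at least 50 CPM. Over the 3687 tested genes at that level the medians were -0.72 in OE replicate 1 and -0.04 in OE replicate 2, with 35.6% lower in both OE libraries, 5.07% higher in both, 34.9% below NC in OE replicate 1 and above it in OE replicate 2, and 9.9% the reverse. The fitted log2 fold changes had a median of -0.51 for SF3 genes, -0.49 for hnRNPs, -0.31 for snRNP proteins and 0.16 for SR proteins, beside 0.09 over all genes tested and -0.26 over those at 50 CPM or more. Differences between classes were not tested, since genes are not replicates of a condition.

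**Figure D1:**
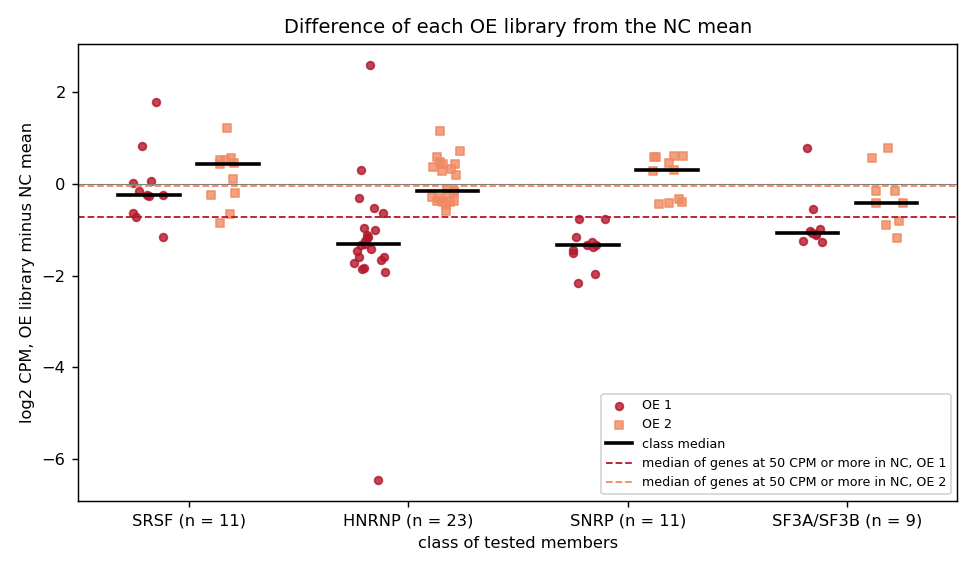
Each point is 1 tested gene, placed at its log2 CPM in an OE library minus the mean of the NC libraries, by class, with OE replicate 1 left of OE replicate 2; black bars are class medians and dashed lines the medians of genes at 50 CPM or more in NC. Class medians in OE replicate 1 ran from -1.34 for SNRP to -0.24 for SRSF, and in OE replicate 2 from -0.42 for SF3 to 0.44 for SRSF.

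The summed level of each class follows its most abundant genes and did not always match the class medians. SR proteins summed to 2516 and 2877 CPM in OE and to 2571 and 2481 CPM in NC. After TMM scaling OE replicate 1 thus lay between the NC libraries. As shares of the unscaled library totals, SR proteins made up 0.342% and 0.261% in OE and 0.229% and 0.226% in NC. On that scale OE replicate 1 was above both NC libraries. The scaled sum rested on SRSF10 and SRSF11, which together had 1109 and 345.3 CPM in OE and 412.2 and 489.8 CPM in NC. Without these genes, a choice made after their values were seen, SR proteins summed to 1408 and 2531 CPM in OE and to 2158 and 1991 CPM in NC. OE replicate 1 was then below both NC libraries, a position that also depends on the scaling. hnRNPs summed to 4999 and 11882 CPM in OE and to 12367 and 13081 CPM in NC. snRNP proteins summed to 1181 and 3192 CPM in OE and to 3264 and 2907 CPM in NC, where OE replicate 2 lay within the NC range. SF3 genes summed to 1145 and 1603 CPM in OE and to 1990.5 and 1979 CPM in NC, below NC in both OE libraries. The ratio of SR protein counts to SF3 counts, which needs no scaling between libraries, was 2.2 and 1.79 in OE and 1.29 and 1.25 in NC. Without SRSF10 and SRSF11 it was 1.23 and 1.58 in OE and 1.08 and 1.01 in NC. Both ratios were higher in each OE library, by less in OE replicate 1 without these genes, whereas the ratio of hnRNP to SF3 counts was 4.37 and 7.41 in OE and 6.21 and 6.61 in NC, with the OE values on opposite sides.

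**Figure D2:**
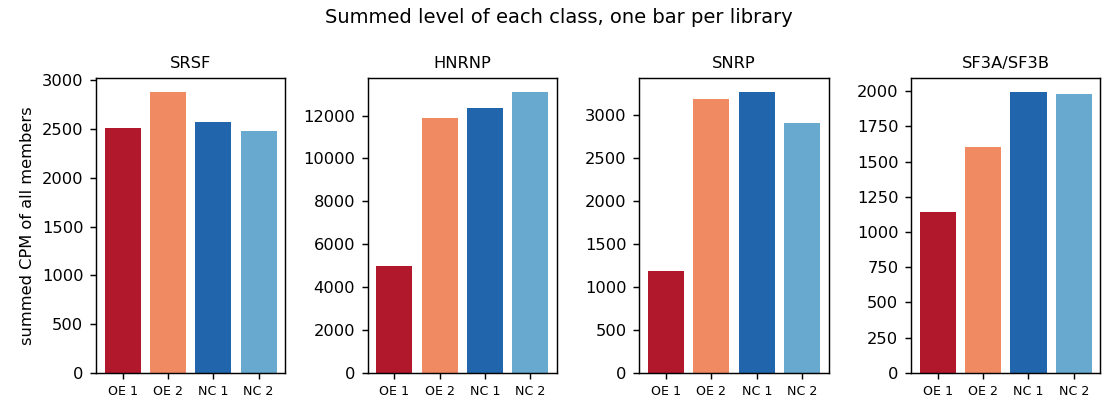
Bars give the summed TMM-scaled CPM of all genes of a class in each library, with OE replicates left of NC replicates and each axis starting at 0. Of unscaled library totals, SRSF genes made up 0.342% and 0.261% in OE and 0.229% and 0.226% in NC. SF3 sums in OE were 1145 and 1603 CPM against 1990.5 and 1979 CPM in NC, while SRSF sums, with SRSF10 and SRSF11 making up 1109 CPM in OE replicate 1, stayed between 2481 and 2877 CPM in all libraries.

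SF3B1 is the large helical repeat protein of SF3B that closes around the branch point, and the target of splicing inhibitors such as pladienolide. It had 96.4 and 92.8 CPM in OE, against 196.9 and 222.7 CPM in NC, or 94.6 ± 2.49 and 209.8 ± 18.2 CPM (SD, n = 2 each). After TMM scaling its OE libraries lay close together and far below both NC libraries. How close they lay depends on the factor of 1.36 for OE replicate 1. This gave a log2 fold change of -1.15 (SE 0.34), an unadjusted p of 0.0195 and an adjusted p of 0.734 (edgeR quasi-likelihood F test, Benjamini-Hochberg). Across the other tests, scalings and filters over all 4 libraries its log2 fold change stayed between -1.18 and -0.82. SF3B3, a scaffold subunit that packs against SF3B1, had 105.7 and 144.8 CPM in OE and 245.5 and 261.2 CPM in NC, with a log2 fold change of -1.02 (SE 0.38). SF3B6, a small subunit found next to the branch point adenosine, had 116.4 and 127.9 CPM in OE and 245.7 and 229.4 CPM in NC, with a log2 fold change of -0.96 (SE 0.35). For both genes the groups did not overlap, the unadjusted p was 0.0441 for SF3B3 and 0.041 for SF3B6, and neither passed after adjustment.

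The other subunits of SF3B were uneven. SF3B2, which pairs with SF3B4 on the RNA upstream of the branch point, had 334.9 and 366 CPM in OE and 480.7 and 496.1 CPM in NC, a log2 fold change of -0.48 (SE 0.42). SF3B4, an RNA-binding subunit, had 40.6 and 147.2 CPM in OE and 104.4 and 71.2 CPM in NC, so that the OE values enclosed those of NC. SF3B5, a small subunit of the core, had 75.3 and 264.3 CPM in OE and 192.0 and 167.3 CPM in NC, again on both sides. Within a library the ratio of SF3B1 to SF3B2 counts was 0.288 and 0.254 in OE, against 0.41 and 0.449 in NC. SF3B1 was named for its small p over the same libraries, so this ratio is no independent check. The ratio of SF3B4 to SF3B1 counts was 0.422 and 1.59 in OE, against 0.53 and 0.32 in NC, and did not separate the groups. The ratio of SF3B5 to SF3B6 counts was 0.647 and 2.07 in OE, against 0.782 and 0.729 in NC, and did not separate the groups. SF3A joins SF3B to the rest of the U2 snRNP. SF3A1 had 66.5 and 127.4 CPM in OE and 138.9 and 145.9 CPM in NC, and SF3A3 had 146.4 and 262.0 CPM in OE and 292.4 and 289.2 CPM in NC. Both SF3A1 and SF3A3 were below NC in each OE library, by little in OE replicate 2. SF3A2 went the other way in OE replicate 1, with 163.0 and 70.6 CPM in OE and 94.1 and 95.8 CPM in NC.

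**Figure D3:**
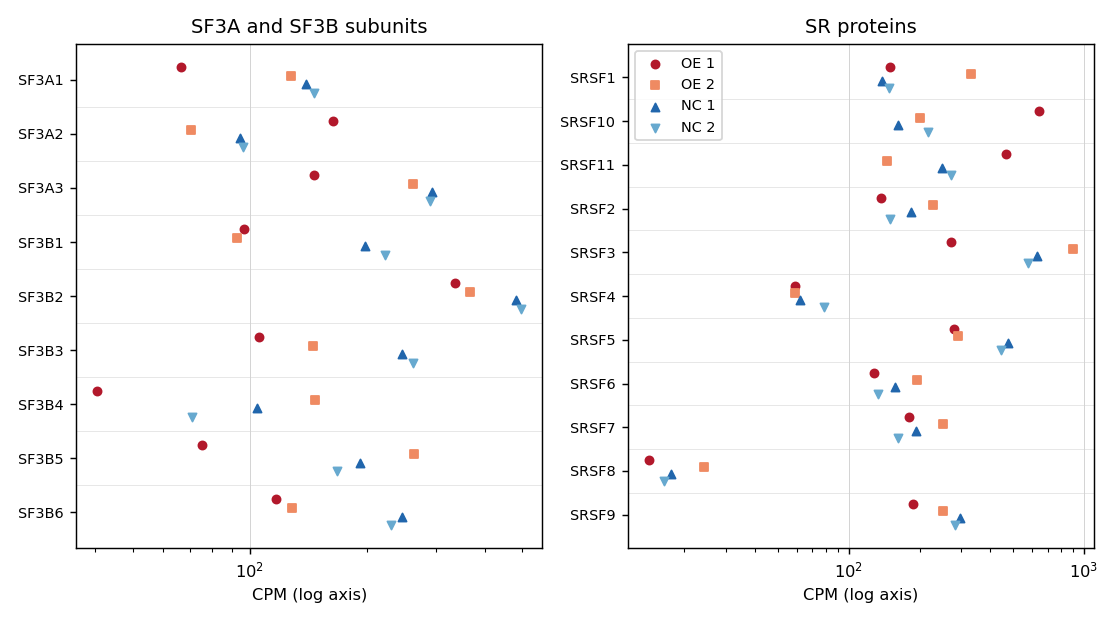
CPM on a log axis of the tested SF3A and SF3B subunits and SR proteins, with 1 point per library (OE 1, OE 2, NC 1, NC 2). SF3B1, SF3B3 and SF3B6 have both OE points between 92.8 and 144.8 CPM and both NC points between 196.9 and 261.2 CPM, while most SR proteins have an OE point on each side of NC or near it.

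SR proteins were the class nearest to NC in OE replicate 1. SRSF1, the prototype SR protein and an oncogene, had 149.5 and 330.6 CPM in OE and 138.1 and 148.4 CPM in NC. Both OE libraries were above both NC libraries, but OE replicate 1 only just exceeded NC replicate 2, and the log2 fold change of 0.74 (SE 0.50) did not pass. With the second row of the symbol added, SRSF1 had 150.7 and 356.5 CPM in OE and 163.6 and 178.9 CPM in NC, so that OE replicate 1 was then below both NC libraries. SRSF3, the smallest canonical member, had 271.1 and 896.5 CPM in OE and 632.3 and 576.2 CPM in NC. Its OE libraries lay on opposite sides of NC and its log2 fold change was -0.05 (SE 0.69), and was 0.12 where only library totals set the scale. SRSF5, first described in rat as a gene induced by insulin, had 280.0 and 291.9 CPM in OE and 475.8 and 444.4 CPM in NC. After TMM scaling its replicates were close in both groups and did not overlap, with 286.0 ± 8.47 CPM in OE and 460.1 ± 22.2 CPM in NC (SD, n = 2 each). The log2 fold change of SRSF5 was -0.69 (SE 0.41), with an unadjusted p of 0.155 and an adjusted p of 0.734 (edgeR quasi-likelihood F test, Benjamini-Hochberg). Where only library totals set the scale, the log2 fold change of SRSF5 was -0.36.

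SRSF10 represses splicing when it loses its phosphates, for instance after heat shock. It had 644.4 and 200.4 CPM in OE and 161.9 and 216.7 CPM in NC, so that OE replicate 1 stood far above the other libraries and OE replicate 2 lay between the NC libraries. The log2 fold change was 1.16 (SE 0.67), the largest of the tested SR proteins, and did not pass. SRSF11 had 464.4 and 144.9 CPM in OE and 250.3 and 273.1 CPM in NC, above NC in OE replicate 1 and below it in OE replicate 2. SRSF2, SRSF6 and SRSF8 were below NC in OE replicate 1 and above it in OE replicate 2, and SRSF7 lay within the NC range in OE replicate 1 and above it in OE replicate 2. For SRSF6, which had 128.4 and 195.2 CPM in OE and 157.0 and 132.6 CPM in NC, the lower OE value was close to the lower NC value. SRSF9 had 188.1 and 252.7 CPM in OE and 298.0 and 282.9 CPM in NC. SRSF4 had 59.0 and 59.3 CPM in OE and 62.0 and 78.7 CPM in NC. These were, with SRSF5, the 3 SR proteins lower in both OE libraries. Over the 11 tested SR proteins, log2 fold changes ran from -0.69 to 1.16, with 4 below 0 and 7 above.

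Among the hnRNPs, HNRNPA2B1, a partner of HNRNPA1 in the core particle, had 708.5 and 1857 CPM in OE and 2425 and 2707 CPM in NC. It was lower in both OE libraries, far more in OE replicate 1, and its log2 fold change was -1.0 (SE 0.73). HNRNPC, which binds uridine tracts and whose sites can be opened by m6A, had 559.1 and 1448 CPM in OE and 1679 and 1701 CPM in NC, a log2 fold change of -0.75 (SE 0.68). HNRNPA1 had 536.5 and 1871 CPM in OE and 1496 and 1476 CPM in NC. Here OE replicate 1 was far below NC and OE replicate 2 above it, and the log2 fold change of -0.30 (SE 0.77) turned to 0.34 without OE replicate 1. HNRNPU, a large scaffold of nuclear RNA and chromatin, had 290.9 and 490.9 CPM in OE and 701.5 and 771.5 CPM in NC, with a log2 fold change of -0.91 (SE 0.51). HNRNPH2, one of the G-tract binding proteins, had 36.2 and 92.6 CPM in OE and 118.0 and 123.2 CPM in NC, with a log2 fold change of -0.90 (SE 0.52). All 3 of HNRNPA2B1, HNRNPU and HNRNPH2 kept the groups apart, and none passed after adjustment, with unadjusted p of 0.226, 0.133 and 0.141.

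The other hnRNPs that were lower in both OE libraries were HNRNPA3, HNRNPC, HNRNPD, HNRNPH3, HNRNPK, HNRNPL, HNRNPM, HNRNPR and HNRNPUL2. HNRNPK, which binds cytidine-rich RNA, had 393.0 and 807.3 CPM in OE and 1033 and 1081 CPM in NC. HNRNPM had 200.4 and 383.4 CPM in OE and 482.5 and 521.0 CPM in NC. In each of the 12 the value in OE replicate 1 was below that in OE replicate 2, and the differences from NC in OE replicate 2 lay between -0.58 (HNRNPU) and -0.12 (HNRNPD) on the log2 scale. The 8 hnRNPs below NC in OE replicate 1 and above it in OE replicate 2 were HNRNPA0, HNRNPA1, HNRNPAB, HNRNPCL2, HNRNPDL, HNRNPF, HNRNPH1 and HNRNPLL. The paralogues HNRNPF and HNRNPH1, which bind G-tracts as HNRNPH2 does, were among them: HNRNPF had 155.2 and 653.5 CPM in OE and 490.3 and 485.2 CPM in NC. HNRNPUL1 had 309.1 and 204.8 CPM in OE and 238.1 and 262.4 CPM in NC, while HNRNPUL2 had 98.7 and 182.2 CPM in OE and 208.4 and 242.7 CPM in NC. The value of HNRNPA1L2, with a log2 fold change of 1.87 (SE 0.92), rested on 78.3 and 58.6 estimated counts in OE and 11.4 and 36.7 in NC.

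**Figure D4:**
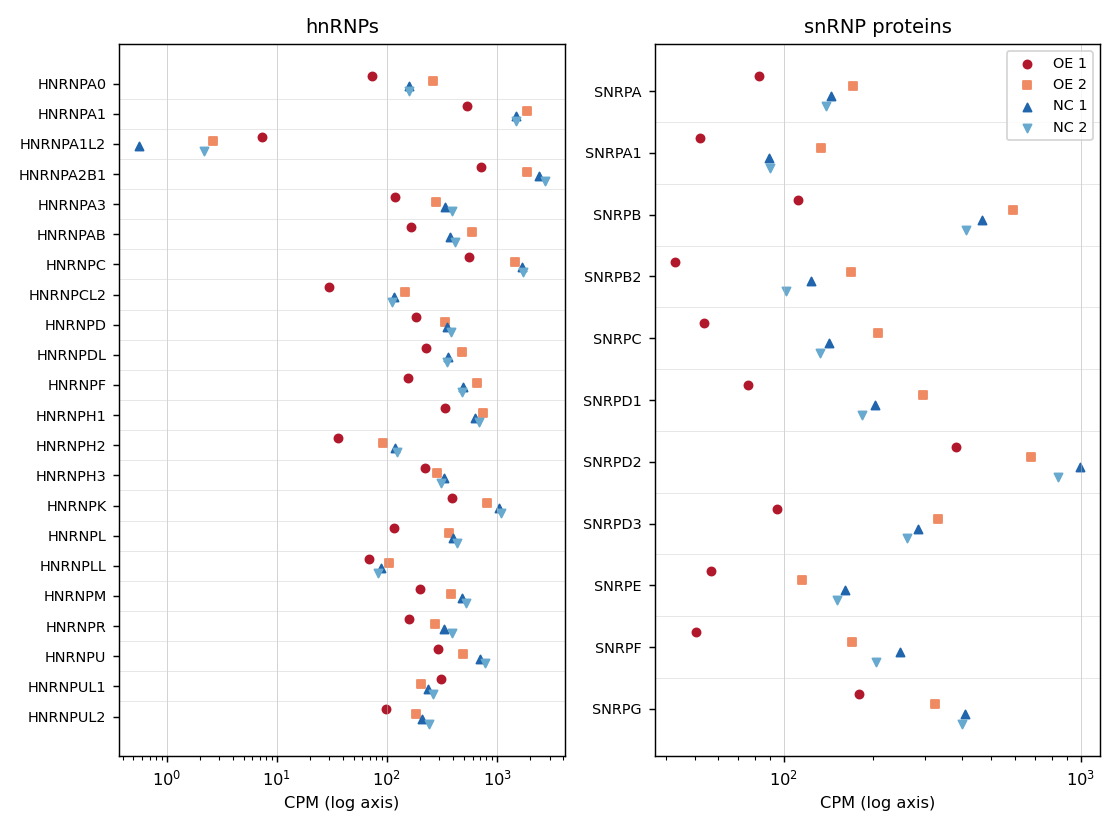
CPM on a log axis of the tested hnRNPs and snRNP proteins, with 1 point per library (OE 1, OE 2, NC 1, NC 2); HNRNPA1P48 is left out because its count was 0 in OE replicate 1. OE replicate 1 is the lowest point for all 11 snRNP proteins, and SNRPD2, SNRPE, SNRPF and SNRPG also have OE replicate 2 below both NC points.

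The snRNP proteins showed 2 patterns, and all 11 tested genes were below both NC libraries in OE replicate 1, as were 45.5% of all genes and 78.7% of those at 50 CPM or more. The 4 that were also below NC in OE replicate 2 were SNRPD2, SNRPE, SNRPF and SNRPG, subunits of the Sm ring, as are 7 of the 11; 4 of 11 is near the 35.6% of genes at 50 CPM or more that were lower in both. SNRPD2 had 380.1 and 682.3 CPM in OE and 997.5 and 837.5 CPM in NC, with a log2 fold change of -0.79 (SE 0.55). SNRPF had 50.4 and 170.3 CPM in OE and 247.3 and 203.7 CPM in NC, with a log2 fold change of -1.03 (SE 0.65). SNRPE had 57.0 and 115.0 CPM in OE and 160.7 and 150.6 CPM in NC, with a log2 fold change of -0.86 (SE 0.45). SNRPG had 179.2 and 322.7 CPM in OE and 407.8 and 399.0 CPM in NC. Sm proteins E, F and G assemble with one another before they join the ring, and D2 binds the ring as a pair with D1. The other Sm proteins, SNRPB, SNRPD1 and SNRPD3, which carry the methylated arginine and glycine tails, were above NC in OE replicate 2. SNRPB had 111.9 and 593.9 CPM in OE and 464.6 and 410.7 CPM in NC, and SNRPD1 had 75.9 and 295.7 CPM in OE and 203.6 and 183.0 CPM in NC. The U1 proteins SNRPA and SNRPC and the U2 proteins SNRPA1 and SNRPB2 showed the same pattern, as SNRPC did with 53.9 and 207.0 CPM in OE and 141.6 and 131.9 CPM in NC. In these 7 genes the fitted log2 fold changes, between -0.35 and 0.05, are means of values on opposite sides.

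Counts that rest on a single OE library were large for every class. Without OE replicate 1, the edgeR quasi-likelihood F test (Benjamini-Hochberg) called 33 of the 54 genes, 16 of them lower, where 34.1% of all genes tested were called, 17.3% lower and 16.8% higher. Without OE replicate 2 it called 46, of which 42 were lower, beside 60.9% of all genes called, 30.8% lower and 30.1% higher. Both fits take the spread from the NC libraries alone and assume that the lone OE library varies like them. Both fits also share the NC libraries. All genes are not a background of matched level, since 51 of the 54 had an NC mean of at least 50 CPM. At that level OE replicate 1 was below both NC libraries for 78.7% of tested genes, against 45.5% of all genes. This held for 47 of the 54. OE replicate 2 was below both for 48.1% at that level and for 28 of the 54. Low values in OE replicate 1 were thus common at that level and not particular to these classes. With OE replicate 2 alone the calls were 5 lower and 2 higher of 9 SF3 genes, 6 and 4 of 23 hnRNPs, 3 and 5 of 11 snRNP proteins, and 2 and 6 of 11 SR proteins. With OE replicate 1 alone they were 8 lower and 1 higher of 9 SF3 genes, 20 and 1 of 23 hnRNPs, 11 and 0 of 11 snRNP proteins, and 3 and 2 of 11 SR proteins. SF3B1 had a log2 fold change of -1.17 with OE replicate 2 alone and -1.16 with OE replicate 1 alone. These values were close under TMM scaling, but SF3B1 was named for the smallest p over the same libraries, which favours genes whose OE libraries agree. SNRPF had -0.40 with OE replicate 2 alone and -2.20 with OE replicate 1 alone.

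One sequence feature that bears on translation is the first stretch of the message: a C at the start followed by an unbroken run of C or T, the terminal oligopyrimidine motif, marks messages whose translation follows mTORC1 activity. Starts were read from RefSeq annotation of GRCh38.p14, on the strand of the gene only, and may not be the starts used in these cells. The table held a start for 53 of the 59 genes, 76 starts in all. A C followed without a break by C or T over at least 5 bases in all, the C included, was found at 5 of the 76, or 6.58%, beside 4.07% of the 35116 starts in the whole table. These 5 starts are shown with 15 bases before the start and 15 from it, beside 1 start each of SF3B1 and SF3B6, which had no such run and were among the genes with the smallest p; capitals mark the unbroken run of C or T that begins at the start.
HNRNPA0, chr5:137754349-137754378, minus strand: cgcgcgttcagcggcCTCTTTgtgtggtgc
SF3A2, chr19:2236809-2236838, plus strand: tttgccccggaagtgCTTTCTTTgcccgcc
SNRPA, chr19:40751188-40751217, plus strand: aatctctcgagagttCTCTCCgcacgcggg
SNRPD2, chr19:45691939-45691968, minus strand: aagaggaagtcccgcCTCTCTCTCCTCagg
SRSF9, chr12:120469734-120469763, minus strand: tttgcctccgccgacCCCTTCgcttccgct
SF3B1, chr2:197435014-197435043, minus strand: gttcttgggagcgccagttccgtctgtgtg
SF3B6, chr2:24076312-24076341, minus strand: cggcgggtcctggatgttgatgtcctgcat
SNRPD2 has 3 annotated starts, of which 1 has the run. The 5 genes did not share a direction: SNRPD2 and SRSF9 were lower in both OE libraries, HNRNPA0 and SNRPA were below NC in OE replicate 1 and above it in OE replicate 2, and SF3A2 was the reverse of those. HNRNPA0 had 73.1 and 260.6 CPM in OE and 159.8 and 157.2 CPM in NC, and SNRPA had 82.4 and 171.2 CPM in OE and 143.9 and 138.8 CPM in NC. A match describes the annotated sequence and not the use of the motif.

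Genes that work with the 4 classes were read from lists drawn up by function, and 0 members of any list passed the test over all genes. The counts that follow stand beside 20.4% of all genes lower in both OE libraries and 19.9% higher, or 35.6% and 5.07% of genes at 50 CPM or more, and most of the lower counts are near these shares. Of 16 SR protein kinases and nuclear speckle partners, 1 was lower in both OE libraries (SON) and 2 were higher (CLK3 and CLK4), with a median log2 fold change of 0.08. CLK1 and CLK2, kinases that phosphorylate SR proteins, were high in OE replicate 1 alone. CLK1 had 100.6 and 17.2 CPM in OE and 15.6 and 20.6 CPM in NC, and CLK2 had 179.1 and 24.4 CPM in OE and 26.7 and 26.5 CPM in NC. Their log2 fold changes of 1.70 and 1.93 turned to -0.07 and -0.12 without OE replicate 1. Of 14 proteins of the tri-snRNP and the PRP19 complex, 5 were below NC in both OE libraries and 0 above. EFTUD2, the GTPase of the U5 snRNP, had 112.5 and 116.7 CPM in OE and 195.6 and 201.9 CPM in NC, a log2 fold change of -0.79 (SE 0.34). CDC5L, a core protein of the PRP19 complex, had 58.6 and 39.3 CPM in OE and 85.3 and 85.9 CPM in NC, a log2 fold change of -0.81 (SE 0.34). The groups did not overlap for either gene, with unadjusted p of 0.0642 for EFTUD2 and 0.0654 for CDC5L.

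Of 7 snRNP proteins with SNRNP symbols, 3 were below NC in both OE libraries and 2 above. SNRNP200, the helicase that unwinds U4 from U6, had 272.9 and 162.7 CPM in OE and 376.7 and 409.6 CPM in NC, and SNRNP27 had 32.4 and 17.5 CPM in OE and 39.4 and 43.8 CPM in NC. Of 11 partners of U2 at the branch point, 3 were lower in both and 0 higher. Among them the helicase DDX46 had 100.0 and 124.2 CPM in OE and 180.7 and 172.1 CPM in NC, and CHERP had 49.7 and 59.4 CPM in OE and 73.3 and 78.3 CPM in NC. Of 17 factors that assemble the Sm ring, 4 were lower in both and 1 was higher. The higher one, SMN2, is a near-identical copy of SMN1 that shares its reads, so its 13.0 and 24.7 CPM in OE and 12.5 and 5.62 CPM in NC are uncertain. SNUPN, which imports assembled snRNPs into the nucleus, had 21.6 and 27.8 CPM in OE and 32.6 and 36.3 CPM in NC. Of 19 other RNA-binding proteins akin to hnRNPs, 6 were lower in both and 4 higher. TAF15 and EWSR1, of the FET family, were among the lower ones. TAF15 had 81.0 and 99.6 CPM in OE and 199.0 and 178.6 CPM in NC, a log2 fold change of -1.06 (SE 0.35) with an unadjusted p of 0.027. EWSR1 had 223.6 and 164.0 CPM in OE and 324.7 and 304.5 CPM in NC. The median log2 fold changes of these 5 lists lay between -0.32 and -0.07.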

How the data were processed

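Per the file headers, each library's deposited file lists estimated counts by Ensembl gene, which the authors left unscaled between libraries; of these values between 13.8% and 14.7% hold a fraction. Tools named in the submitters' processing notes are RSEM, HISAT2, StringTie, fastp and Bowtie2, with the build hg18; their versions, the annotation, strand and handling of shared reads are not stated in the sources used here. Groups and replicate numbers came from the sample titles. Of several rows with 1 symbol, which occurred for 3 symbols, the row with the largest summed count was taken.

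Rounded counts were tested with edgeR 4.0.16 in R 4.3.3; alternatives used DESeq2 1.42.0 and limma 3.58.1. The filterByExpr rule (a count of 10, a total of 15, a proportion of 0.7) chose the genes, and OE was compared with NC by the quasi-likelihood F test, group being the sole term, with Benjamini-Hochberg adjustment over all 12560 genes. Standard errors are the log2 fold change divided by the square root of F. Differences of single libraries are log2 CPM (prior count 2) minus the NC mean. The steps were tested on simulated data. The simulated libraries varied less than the real ones, so that test does not show what changes could be detected here. Named genes were, in each class, the 3 with the highest mean CPM and the 3 with the smallest p, and in each related list the 2 with the smallest p, beside METTL14; other genes of the classes were added after their values were seen. Genes, classes and lists were chosen with earlier results of these data known. Replicates of a pair differed by a chi-square per degree of freedom of 293 for OE and 11.5 for NC, so none was a repeated library. Alternatives are given in the closing section.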

Additional observations from a re-analysis of the deposited data

How the results depend on the processing

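Over all 4 libraries, 0 of the tested genes of the 4 classes were called under any of 9 other settings, which changed the test, the scaling, the filter, the summing of rows that share a symbol or the replicate block. Calls over all genes were 25 with the DESeq2 Wald test, 29 with edgeR's likelihood ratio test and 24 with the replicate block, against 0 in the reported fit. The genes of the classes higher in both OE libraries, 2 as reported, were 7 with library totals as the only scaling. They were 1 with DESeq2 and RLE size factors, without a filter, with a minimum count of 50 and with rows summed. Over all genes tested the share higher in both was 30.2% with library totals, against 19.9% in the reported fit. Library totals moved the median log2 fold change of all genes from 0.09 to 0.40 and turned SRSF3 to 0.12. With them the class medians were 0.43, -0.25, -0.185 and -0.26 for SR proteins, hnRNPs, snRNP proteins and SF3 genes. Genes of the classes lower in both OE libraries went from 25 to 22, and the all-gene share from 20.4% to 11.8%. With limma-voom and quality weights the class medians were 0.065, -0.86, -0.82 and -0.67 in the same order. METTL14 was called by DESeq2, with 2.54 (adjusted p = 0.0495).

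Calls over all genes were 4329 without OE replicate 1, 7970 without OE replicate 2, 11 without NC replicate 1 and 7 without NC replicate 2. Leaving out 1 library at a time gave between 0 and 46 calls in the 4 classes, between 25 and 47 genes of the classes below NC in every OE library kept and between 2 and 24 above. Over all genes tested, too, more genes met this rule where only 1 OE library was kept. Below NC were 45.5% of all genes without OE replicate 2 and 42.4% without OE replicate 1, against 24.8% without NC replicate 1. The shares above NC were 46.9%, 42.8% and 25.8% in the same order of settings. Of genes at 50 CPM or more in NC, OE replicate 1 was below both NC libraries for 78.7%, and OE replicate 2 for 48.1%. Class medians ran from -0.29 to 0.43 for SR proteins, from -1.36 to -0.17 for hnRNPs, from -1.39 to 0.29 for snRNP proteins and from -1.14 to -0.41 for SF3 genes, the low end without OE replicate 2 and the high end without OE replicate 1. SRSF3 ran from -1.20 to 0.57, HNRNPA1 from -1.51 to 0.34, SNRPB from -2.01 to 0.44, CLK1 from -0.072 to 2.44 and CLK2 from -0.12 to 2.71. The cause was not tested.

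The replicate number was not used as a block in the reported fit, since no label says that it marks a shared batch and the replicate 1 deviations of OE and NC correlated at -0.0974. With the replicate block the class medians were 0.09, -0.74, -0.61 and -0.57 for SR proteins, hnRNPs, snRNP proteins and SF3 genes. With 2 libraries per group and counts of OE replicate 1 well below the others, depth limits genes of low count most.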

Other observations

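Second rows of 3 symbols, left out of the classes, held part of the footprints. The second row of SRSF1 had 1.14 and 25.9 CPM in OE and 25.5 and 30.5 CPM in NC, where the main row was higher in both OE libraries and the sum of the rows was not. The second row of SNRPD3 had 53.9 and 166.5 CPM in OE and 144.5 and 130.3 CPM in NC, and that of HNRNPL 22.7 and 64.9 CPM in OE and 74.6 and 62.5 CPM in NC. The pseudogene HNRNPA1P48 was listed at 0 in the first OE library and at 14.1 CPM in the second, beside 15 and 6.74 CPM in NC.

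PHF5A, the SF3B subunit whose symbol lies outside the classes, had 43.1 and 132.8 CPM in OE and 65.3 and 52.8 CPM in NC, on both sides as SF3B4 and SF3B5 were. It was chosen after its values were seen. SNRNP70, the U1 protein whose symbol also lies outside the classes, had 165.8 and 284.9 CPM in OE and 288.9 and 273.4 CPM in NC, also chosen after its values were seen.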
